A study of Mus musculus with 12 samples.

Results

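Proteins that enter the secretory pathway are folded in the lumen of the endoplasmic reticulum (ER) by chaperones, and the mRNAs described here encode 8 such factors and 2 regulators tied to them, 10 genes in all: Hspa5, Hsp90b1, Dnajb9, Calr, Canx, Pdia3, Pdia4, Pdia6, Xbp1 and Herpud1. They were chosen by name, as genes of the ER folding machinery and of the unfolded protein response, out of 16617 named genes in the tables of both compartments. All 10 were among the 15990 genes that passed the filter on low counts, and they were represented by 31 transcripts present in both tables.

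RNA was sequenced from dorsal root ganglion (DRG) cultures, which hold the cell bodies of sensory neurons, kept 3 days in chambers divided by a membrane, whose pores of 1 µm neurites can cross. The 4 groups were neurites of GAR+/- cultures (het below), neurites of GAR+/+ cultures (WT), soma of het cultures and soma of WT cultures, each with 3 libraries, 12 in all. Each culture came from the ganglia of 1 adult mouse of the C57B6 background, total RNA was used, and ribosomal RNA was depleted. The series title speaks of nucleolin deficient axons, and nucleolin is an RNA-binding protein that carries a domain rich in glycine and arginine (GAR). The labels give the allele no further description, the cultures were not purified of glia, and a count over the whole gene does not check a domain. Ncl, which encodes nucleolin, lay between 218 and 463 CPM in the 12 libraries.

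When unfolded proteins build up in the ER, the sensors Ire1, Perk and Atf6 start the unfolded protein response. Ire1 splices the Xbp1 mRNA so that it encodes an active transcription factor, and Atf6 and Xbp1 then raise transcription of chaperone genes. Ribosomes, ER and the mRNAs of chaperones such as Calr and Hspa5 have been described in axons, where local synthesis of secreted and membrane proteins needs a folding machinery.

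Library totals in the deposited tables ran from 14965973 to 32434916 counts. The lowest total of any member in any library was 102 counts (Herpud1) and the highest 16104 (Pdia3), and 3 counts, the limit that a count of 0 allows, came to between 0.0905 and 0.21 CPM, so none of the members was near the detection limit. That limit and the intervals below cover counting error or the spread between libraries, and PCR copies were not told apart. CPM is the count scaled to a library of 1000000 counts after TMM scaling, and values after ± are SDs over 3 libraries. The first principal component of all genes set WT neurites library 1 apart (-63.07, the others between -36.6 and 39.42), and the second set WT neurites library 2 apart (-55.77, the others between -9.9 and 21.38). Markers of sensory neurons were abundant in all groups, with Tubb3 (a neuronal tubulin) averaging 4350 CPM in het neurites, 3510 in WT neurites, 4930 in het soma and 4300 in WT soma. Markers of other cells were present too: 10 fibroblast markers summed to between 896 and 4246 CPM per library, and 12 satellite glia markers to between 1032 and 1775 CPM. These are bulk samples, so fewer cells of a type and less RNA per cell cannot be told apart.

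Hsp90b1 encodes Grp94, the Hsp90 of the ER lumen. It measured 289, 242 and 169 CPM in het neurites, 446, 254 and 313 in WT neurites, 204, 195 and 233 in het soma and 274, 239 and 245 in WT soma. WT neurites library 1 was the highest and het neurites library 3 the lowest, 2.64 times apart. Het soma lay below WT soma without overlap, as it did for 11.9% of all genes tested. Hspa5 encodes BiP, the Hsp70 of the ER lumen and the chaperone that keeps the stress sensors inactive. Its counted transcripts measured 40.5, 39.3 and 26.7 CPM in het neurites, 46.9, 38.8 and 38.6 in WT neurites, 37.0, 40.7 and 45.6 in het soma and 52.2, 43.1 and 36.6 in WT soma. All groups overlapped, apart from 1 low library, number 3 of het neurites. Hspa5 is incompletely counted, because its longest annotated protein-coding transcript was not analysed here, and between 48.5% and 63.1% of its counts were assigned to retained-intron transcripts. Dnajb9 encodes ERdj4, a co-chaperone of BiP. It measured 82.3, 83.6 and 59.5 CPM in het neurites, 85.4, 61.6 and 70.9 in WT neurites, 76.0, 78.3 and 79.8 in het soma and 76.8, 81.8 and 74.4 in WT soma, with a wider spread among neurites than among soma and overlap throughout.

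Calr encodes calreticulin, a calcium-binding chaperone that holds glycoproteins by their sugars. It measured 371, 365 and 248 CPM in het neurites, 577, 406 and 441 in WT neurites, 329, 341 and 385 in het soma and 457, 394 and 383 in WT soma. Every het neurite library lay below every WT neurite library, as was so for 10.8% of all genes tested. The soma groups overlapped by a narrow margin. Canx encodes calnexin, the membrane-bound counterpart of calreticulin. It measured 55.9, 55.5 and 41.7 CPM in het neurites, 65.1, 57.4 and 58.8 in WT neurites, 53.5, 50.1 and 58.4 in het soma and 55.3, 50.3 and 53.0 in WT soma, and again the het neurites did not overlap the WT neurites.

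The protein disulfide isomerases form and rearrange disulfide bonds, and Pdia3 (ERp57) works with calreticulin and calnexin on glycoproteins. Pdia3 had the highest CPM of the 10 genes, at 578, 479 and 330 CPM in het neurites, 839, 463 and 627 in WT neurites, 452, 420 and 539 in het soma and 559, 539 and 553 in WT soma. Pdia4 (ERp72) measured 320, 258 and 198 CPM in het neurites, 517, 271 and 385 in WT neurites, 245, 219 and 293 in het soma and 352, 295 and 317 in WT soma. For both, the soma groups did not overlap (for Pdia3 they met at 539 CPM), while the neurite groups did, through WT neurites library 2. Of all genes tested, 11.9% were lower in het soma without overlap. Pdia6 (P5) measured 115, 87.2 and 78.9 CPM in het neurites, 183, 83.3 and 130 in WT neurites, 104, 88.0 and 120 in het soma and 141, 105 and 119 in WT soma, with overlap in both compartments.

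Xbp1 was the steadiest of the 10, with an SD of 0.06 on the log2 scale over all 12 libraries against 0.16 to 0.37 for the other 9. It measured 161, 165 and 157 CPM in het neurites, 161, 149 and 150 in WT neurites, 161, 155 and 159 in het soma and 142, 162 and 155 in WT soma. The tables do not separate the form spliced by Ire1 from the unspliced form, so these levels say nothing of splicing. Herpud1, whose product Herp sits in the ER membrane and serves ER-associated degradation, was the lowest of the 10. It measured 8.81, 8.71 and 8.91 CPM in het neurites, 7.14, 9.62 and 9.69 in WT neurites, 8.75, 9.24 and 11.1 in het soma and 10.2, 10.6 and 8.59 in WT soma, with overlap throughout. As for Hspa5, some of its annotated coding transcripts were not analysed here.

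**Figure D1:**
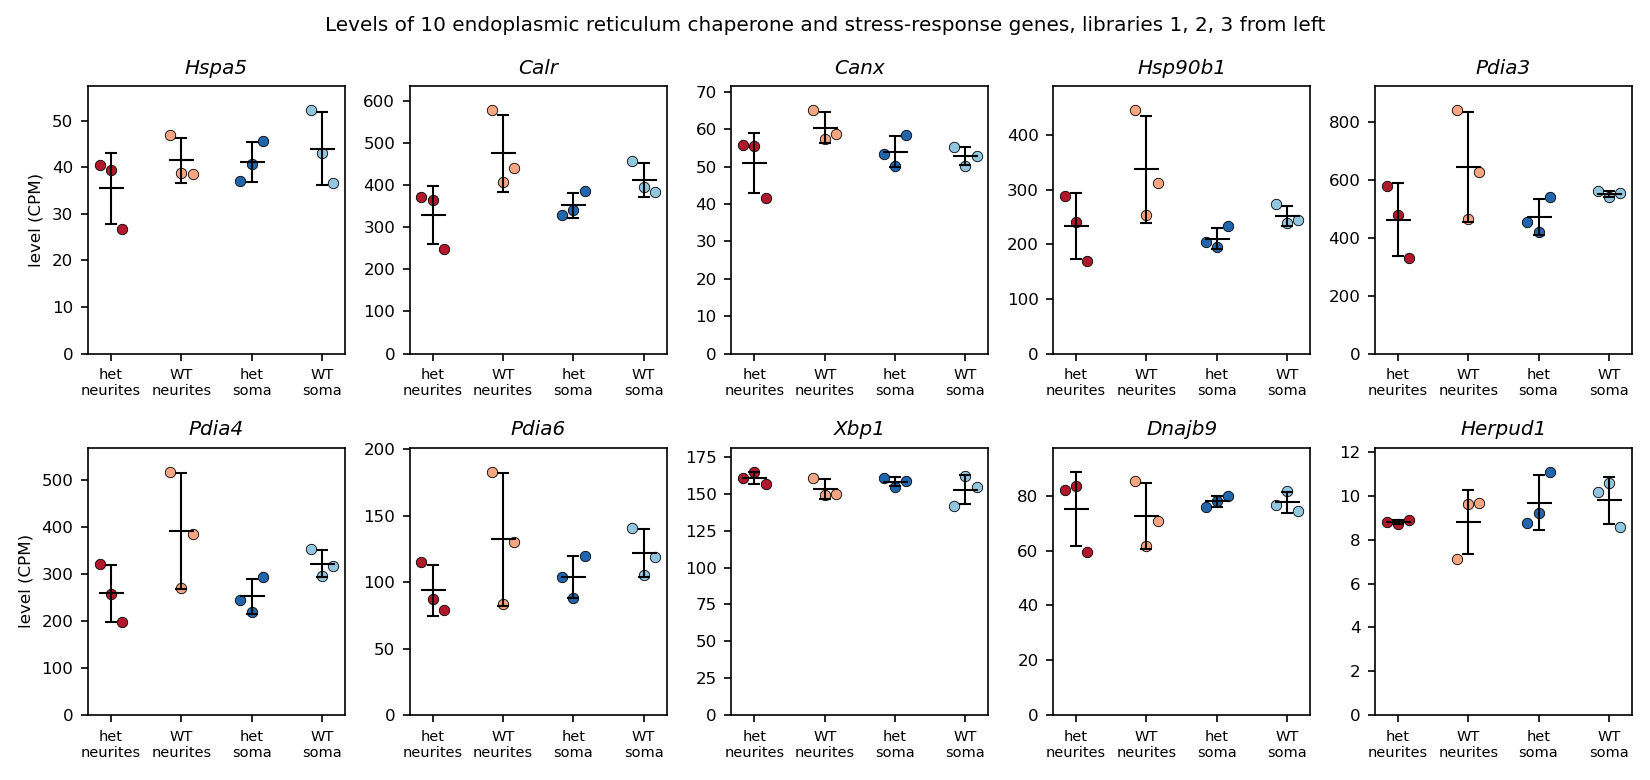
Levels of the 10 genes in CPM (vertical axes from 0) in het neurites, WT neurites, het soma and WT soma. Points are libraries 1, 2 and 3 from left to right, and bars are the mean ± SD of 3 libraries. Calr and Canx are lower in every het neurite library than in every WT neurite library, as are 10.8% of all genes tested. Xbp1 stays between 142 and 165 CPM.

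Compared per length, as CPM per kilobase summed over all counted transcripts of a gene, the means stood in the same order in all 4 groups. It was Calr, Pdia3, Pdia4, Hsp90b1, Xbp1, Pdia6, Hspa5, Dnajb9, Canx and Herpud1. Short noncoding transcripts weigh heavily in this sum. In WT neurites the retained-intron Hspa5-206, of 574 bases, averaged 17.1 CPM, and the coding Hspa5-202, of 2613 bases, averaged 17.2 CPM. The order is therefore not one of coding mRNAs, which was not computed. In WT neurites Calr averaged 260 ± 45.0 and Herpud1 5.22 ± 1.11 CPM per kilobase. In WT soma the means were 220 ± 20.9 and 5.87 ± 0.72. The libraries of Calr and Pdia3 overlapped in each group, as did those of Pdia4 and Hsp90b1 and those of Pdia6 and Hspa5, so these neighbours were not separated. Canx stood above Herpud1 without overlap in each group.

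In GENCODE M21 (GRCm38) the genes on the plus strand are Hspa5 (chr2:34771970-34777547), Pdia3 (chr2:121413775-121438687), Pdia6 (chr12:17266545-17284770), Xbp1 (chr11:5520659-5525893) and Herpud1 (chr8:94386438-94395377). Those on the minus strand are Calr (chr8:84841850-84846934), Canx (chr11:50293961-50325673), Hsp90b1 (chr10:86690209-86705509), Pdia4 (chr6:47796141-47813430) and Dnajb9 (chr12:44205559-44210326), so no pair of the 10 shares a locus.

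All 10 genes had a promoter window in RefSeq (build GRCm38.p6), 250 bases before the start used for that window and 50 after it. This start can differ from the end of the GENCODE interval given above. In Hspa5 the stress response element (chr2:34772025-34772043) lies before the window's start but inside the GENCODE interval. The windows were searched on both strands for elements through which the unfolded protein response is known to act. These were the ER stress response element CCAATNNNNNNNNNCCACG, its variant (element II), ATTGG and CCACG with 1 base of any kind between them, and the core TGACGTG of the unfolded protein response element. The ER stress response element was present letter for letter in 5 of the 10 windows, those of Hspa5, Hsp90b1, Calr, Canx and Pdia6, and in 0.119% of 32851 RefSeq promoter windows of the same length. Hsp90b1 held it at 2 places. Element II was present in 1 member, Herpud1, and in 0.0365% of all windows. The core was present in 1 member, Hspa5, from base -157 to -151 before the start with no overlap with its stress response element, and in 2.01% of all windows. None of the 3 spellings occurred in the windows of Pdia3, Pdia4, Xbp1 and Dnajb9, which says only that these letters are not in those 300 bases. The members were chosen as genes of the ER folding machinery and of this response. A higher share of its elements among them was thus built into the choice. Any part of the elements in the levels measured here was not tested. Windows of 4 members are shown because they hold the elements in their different arrangements; each reads 5′ to 3′ on the strand of the gene, and capitals mark the stress response element or, in Herpud1, element II.
Hspa5, chr2:34771840-34772139, plus strand: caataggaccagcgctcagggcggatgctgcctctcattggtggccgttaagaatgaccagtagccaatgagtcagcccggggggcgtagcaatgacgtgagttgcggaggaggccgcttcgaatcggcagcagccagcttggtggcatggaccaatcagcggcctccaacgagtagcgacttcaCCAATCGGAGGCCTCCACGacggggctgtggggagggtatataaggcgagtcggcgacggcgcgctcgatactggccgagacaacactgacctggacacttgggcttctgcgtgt
Hsp90b1, chr10:86705395-86705694, minus strand: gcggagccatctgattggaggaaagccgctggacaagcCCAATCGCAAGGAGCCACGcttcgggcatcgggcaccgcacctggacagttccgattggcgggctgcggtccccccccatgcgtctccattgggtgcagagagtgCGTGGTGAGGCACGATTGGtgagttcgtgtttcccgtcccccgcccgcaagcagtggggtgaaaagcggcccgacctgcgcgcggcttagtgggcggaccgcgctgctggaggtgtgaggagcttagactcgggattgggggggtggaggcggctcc
Calr, chr8:84846882-84847181, minus strand: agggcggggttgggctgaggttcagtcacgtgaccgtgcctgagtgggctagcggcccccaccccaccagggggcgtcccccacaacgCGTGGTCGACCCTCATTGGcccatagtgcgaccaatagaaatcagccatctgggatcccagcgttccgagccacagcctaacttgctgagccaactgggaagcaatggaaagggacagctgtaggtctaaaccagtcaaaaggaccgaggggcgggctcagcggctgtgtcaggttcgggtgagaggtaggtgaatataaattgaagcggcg
Herpud1, chr8:94386179-94386478, plus strand: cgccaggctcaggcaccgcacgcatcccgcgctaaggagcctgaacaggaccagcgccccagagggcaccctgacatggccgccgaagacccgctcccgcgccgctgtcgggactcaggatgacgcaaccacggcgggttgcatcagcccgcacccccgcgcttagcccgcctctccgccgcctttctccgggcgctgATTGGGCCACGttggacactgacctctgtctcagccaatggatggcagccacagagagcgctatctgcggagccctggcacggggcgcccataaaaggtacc
In Calr and in the copy of Hsp90b1 nearer the start, the element lay on the opposite strand and so reads from CGTGG to ATTGG. For the remaining members with a match the element alone is given, with its fixed letters in capitals and the spacer in lower case.
Canx, chr11:50325800-50325818: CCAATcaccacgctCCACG
Pdia6, chr12:17266491-17266509: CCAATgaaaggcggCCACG

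**Figure D2:**
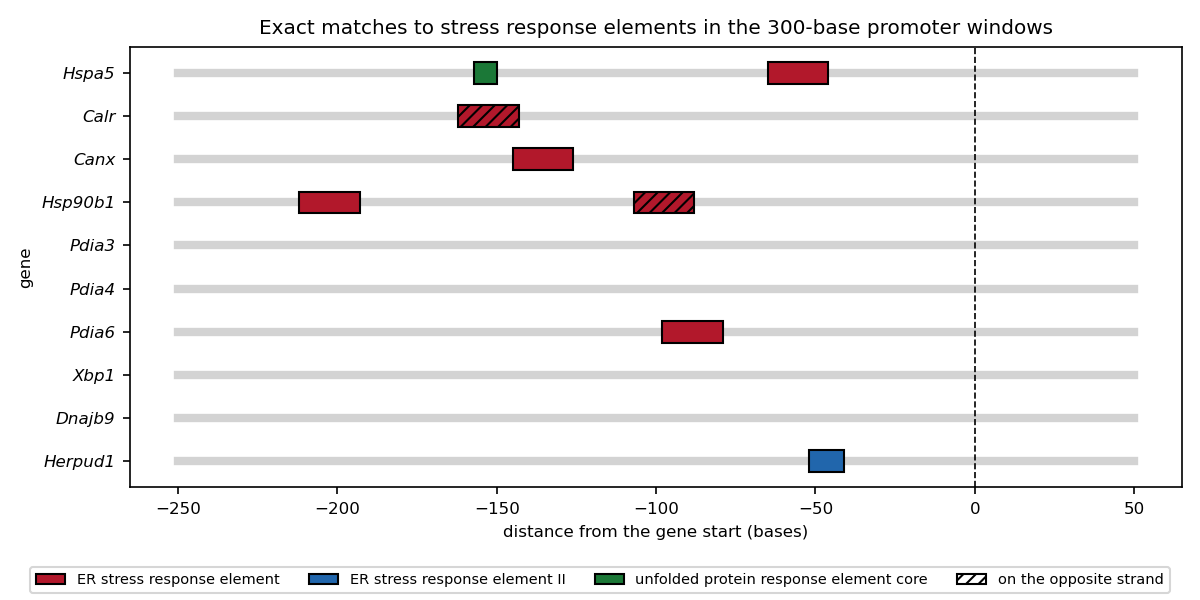
Places of exact matches to 3 stress response elements in the promoter windows of the 10 genes. The horizontal axis is the distance in bases from the gene start used for the RefSeq window. Grey lines are the windows, coloured boxes the matches, and hatched boxes matches on the opposite strand. The matches lie between 212 and 42 bases before the start.

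Whether the heterozygous allele went with a different level in neurites was the comparison with the largest differences. Hspa5, Hsp90b1, Calr, Canx, Pdia3, Pdia4 and Pdia6 were all lower on average in het neurites than in WT neurites, but none of the 10 members passed an adjusted p of 0.05 (0 of 10, against 3.27% of all genes tested in either direction and 2.78% in the lower direction). Calr averaged 328 ± 68.9 CPM in het neurites and 475 ± 90.5 CPM in WT neurites, a log2 fold change of -0.53 (SE 0.16, 95% interval -0.87 to -0.2, adjusted p = 0.0749). Pdia4 averaged 259 ± 61.0 CPM in het neurites and 391 ± 123 CPM in WT neurites, with a log2 fold change of -0.60 (SE 0.22, adjusted p = 0.15). For Hsp90b1 the means were 234 ± 60.5 CPM in het neurites and 338 ± 98.3 CPM in WT neurites (log2 fold change -0.53, SE 0.21, adjusted p = 0.164). These 3 and Pdia3 (-0.48) had an unadjusted p under 0.05. Pdia6 (-0.49), Canx (-0.24) and Hspa5 (-0.22) did not, and Xbp1 (0.07), Dnajb9 (0.05) and Herpud1 (-0.01) lay near 0.

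The members' median log2 fold change in this comparison was -0.36, against -0.01 over all genes tested. Het and WT neurites did not overlap for 2 of the 10, Calr and Canx, both lower, against 10.8% of all genes in that direction, and for none in the other (7.53%). The call on Calr depended on the fit: it was lower in het neurites with an adjusted p of 0.0283 by DESeq2, in which 6.83% of genes were called lower, and an adjusted p of 0.0198 when a replicate block was added, where 7.75% were. Leaving out WT neurites library 2, which stands apart in the second component, brought 5 members past the threshold as lower in het neurites, against 7.31% of all genes called lower. They were Pdia4 (-0.80, adjusted p = 0.0198), Calr (-0.63, adjusted p = 0.0265), Pdia6 (-0.74, adjusted p = 0.034), Hsp90b1 (-0.70, adjusted p = 0.0423) and Pdia3 (-0.66, adjusted p = 0.0497). Without WT neurites library 1, the highest for these genes, the same 5 log2 fold changes were -0.35, -0.37, -0.19, -0.28 and -0.24. None of them passed, and of all 16285 genes tested there 46 were called lower. Without het neurites library 3, the lowest, the 5 values were -0.44, -0.37, -0.38, -0.35 and -0.28. None of them passed, but 0 of all 16316 genes did. Without het neurites library 1 Calr alone passed (-0.63, adjusted p = 0.0453), where 901 of 16293 genes were called lower.

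**Figure D3:**
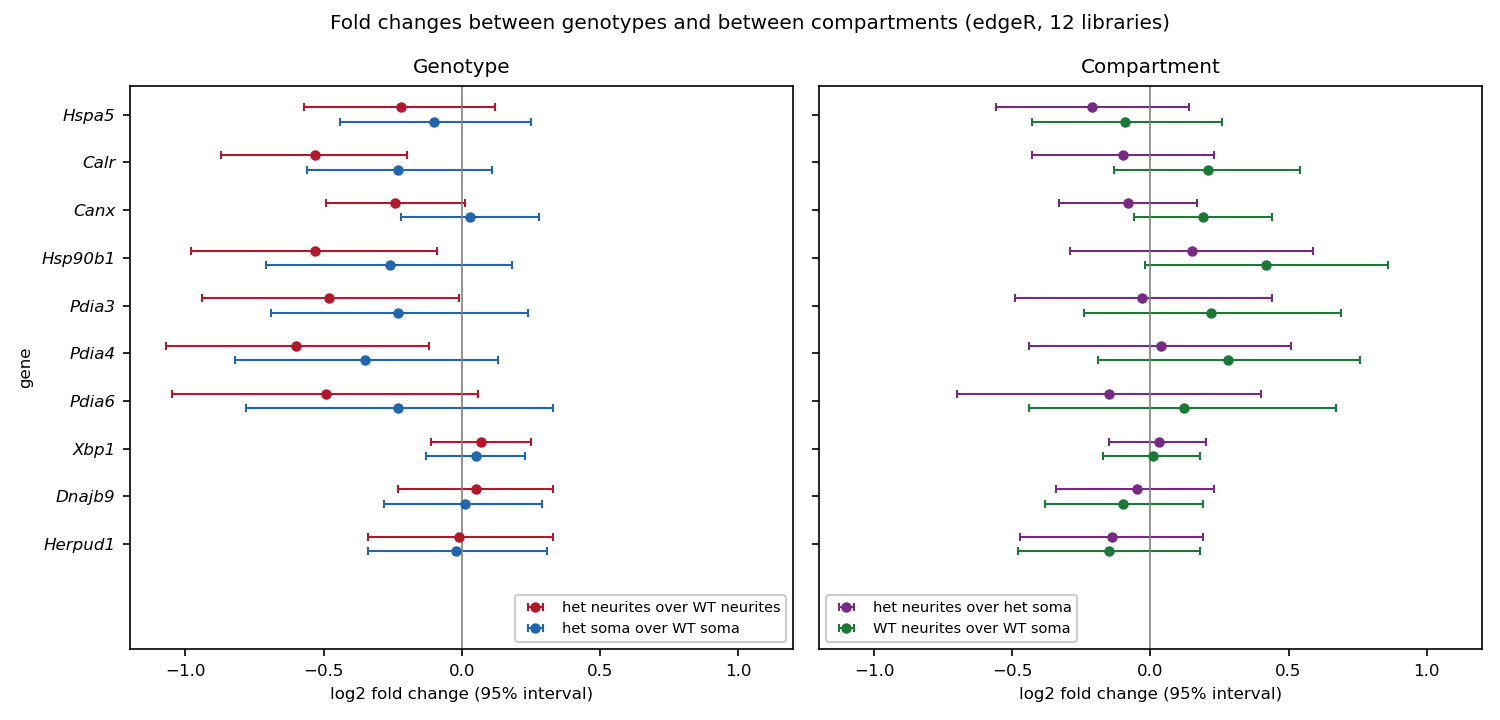
Log2 fold changes (horizontal axes) of the 10 genes with 95% intervals from the edgeR fit to 12 libraries, for het over WT in neurites and in soma (left) and for neurites over soma in het and in WT cultures (right). The intervals of Calr, Hsp90b1, Pdia3 and Pdia4 for het over WT in neurites lie below 0 before adjustment for the number of genes tested.

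In soma the differences between genotypes had the same sign for the 5 genes with the largest differences in neurites, and none passed. No member was called in het soma against WT soma, and no gene of the 15990 did by edgeR (0.0%), although 1464 had an unadjusted p under 0.05 and DESeq2 called 320 genes (2.68%), none of them a member. The largest difference was that of Pdia4, with 252 ± 37.6 CPM in het soma and 321 ± 28.8 CPM in WT soma (log2 fold change -0.35, SE 0.22, adjusted p = 0.696). Hsp90b1 (-0.26), Calr (-0.23), Pdia3 (-0.23) and Pdia6 (-0.23) followed, and the other 5 lay between -0.10 and 0.05. The members' median was -0.16, against 0.01 over all genes. Het and WT soma did not overlap for 3 of the 10, Hsp90b1, Pdia3 and Pdia4, all lower in het soma, against 11.9% of all genes in that direction, and for none in the other (8.86%). With the replicate number as a block, which pairs these soma libraries, 520 genes were called (3.25%), and still 0 of the 10. With only the 2 soma groups in the fit, 388 of 15573 genes were called, 376 of them lower, and again no member. The same kind of fit to the 2 neurite groups called 0 of 15028 genes, against 523 in the main fit. The main fit shares its spread over all 4 groups, so the spread among neurites enters the soma errors. For Pdia3 the SD was 10.2 CPM in WT soma and 188 CPM in WT neurites.

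Whether the mRNAs were distributed differently between neurites and soma was asked within each genotype. None of the 10 passed in WT cultures (0 of 10, against 3.1% of all genes), in het cultures (0 of 10, against 0.638%) or over both genotypes together (0 of 10, against 12.2%). In WT cultures Hsp90b1 was the nearest to a difference, with 338 ± 98.3 CPM in neurites and 253 ± 19.0 CPM in soma (log2 fold change 0.42, SE 0.20, adjusted p = 0.281), and in het cultures the value was 0.15 (SE 0.20, adjusted p = 0.808). Calr gave 0.21 (SE 0.16) in WT cultures and -0.10 (SE 0.16) in het cultures, and Hspa5 gave -0.09 (SE 0.16) in WT cultures and -0.21 (SE 0.16) in het cultures. Over both genotypes the 10 log2 fold changes ran from -0.15 to 0.28, and their 95% intervals stayed between -0.41 and 0.60. In WT cultures 1 of the 10, Canx, was higher in every neurite library than in every soma library, against 12.4% of all genes, and in the other direction there was none (9.96%). In het cultures there was no such member in either direction (11.7% of genes higher and 10.6% lower). With replicate number as a block the WT comparison called 1510 genes (9.44%) in place of 495, and still 0 of the 10. The het comparison with this block called 668 of 15990 genes in place of 102, and again 0 of the 10.

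The difference between the genotypes in the neurite-to-soma change was tested as an interaction. Its log2 values, het change minus WT change, ran from -0.31 (Calr) to 0.04 (Dnajb9), and every adjusted p was 1.0. No gene in the whole table passed by edgeR (0.0%), where 202 genes had an unadjusted p under 0.05, and DESeq2 called 0. A genotype difference in neurites that exceeds that in soma was therefore not shown for any member. Those 202 genes are a share below 0.05 of the 15990 tested, so the test was strict here. The lack of calls does not show that the differences were equal.

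Across the 12 libraries the 7 luminal and membrane chaperones, lectins and isomerases (Hspa5, Hsp90b1, Calr, Canx, Pdia3, Pdia4 and Pdia6) went up and down together. Pearson's correlation of log2 CPM ranged from 0.60 to 0.97 over their 21 pairs (Spearman 0.34 to 0.99), with Pdia3 and Pdia4 at 0.97. The range was 0.30 to 0.96 when 2 libraries were left out, those farthest from the median of the x measure in each pair, and 0.58 to 0.98 within groups, after the group means were subtracted. Dnajb9 correlated with these 7 at 0.44 to 0.68, which became 0.68 to 0.91 within groups and -0.37 to 0.53 without 2 libraries. For Xbp1 the range was -0.23 to 0.01 (0.01 to 0.42 within groups, -0.72 to 0.37 without 2 libraries), and for Herpud1 -0.40 to 0.21 (-0.37 to 0.08 within groups, 0.03 to 0.51 without 2 libraries). The points share their library and its scaling, so these are descriptions without a test.

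Among 7154 genes with a mean of at least 10 CPM, those most like Calr over the 12 libraries were Rpn1 (0.968), a subunit of the oligosaccharyltransferase, Ctsz (0.96), a lysosomal cathepsin, Edem3 (0.957), a mannosidase of ER-associated degradation, Pvr (0.956), a cell surface adhesion protein, and Lman1 (0.952), a cargo receptor between ER and Golgi. Those most like the counted transcripts of Hspa5 were Tyw1 (0.937), Vps13a (0.92), Uggt1 (0.918), which returns misfolded glycoproteins to calnexin and calreticulin, Nomo1 (0.914) and Cpd (0.904).

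**Figure D4:**
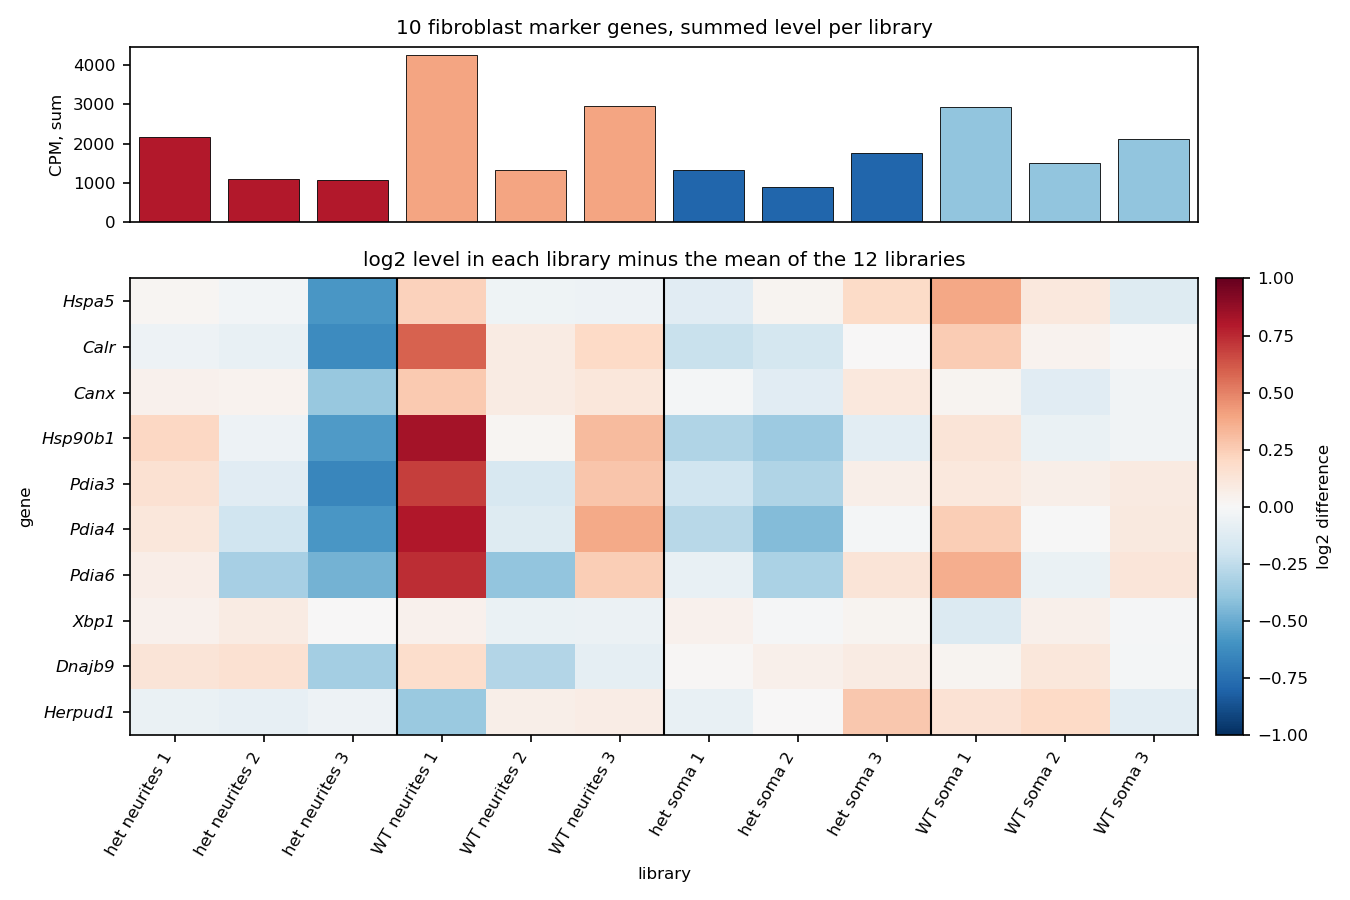
Top: summed level of 10 fibroblast marker genes in each of the 12 libraries (CPM, bars from 0). Bottom: log2 level of each of the 10 chaperone and stress-response genes in each library minus its mean over the 12 libraries, red above and blue below that mean; WT neurites library 1 has the highest fibroblast sum (4246 CPM) and the highest level of Calr, Canx, Hsp90b1, Pdia3, Pdia4 and Pdia6, and het neurites library 3 has the lowest level of each of these 6.

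Marker sums of other cells were set beside these levels. Of all genes tested 2.78% were called lower in het than WT neurites. The 10 fibroblast markers summed to 2172, 1097 and 1084 CPM in het neurites, 4246, 1337 and 2959 in WT neurites, 1334, 896 and 1755 in het soma and 2924, 1502 and 2119 in WT soma, so they were high in WT neurites library 1, where the chaperones were high, and low in WT neurites library 2, but nearly equal in het neurites libraries 2 and 3, where Hsp90b1 was 242 and 169 CPM. Their median log2 fold change in het over WT neurites was -0.70, with 0 of 10 called and 8 of 10 below 0, and in het over WT soma -0.56. Col1a2, a collagen chain, averaged 537 CPM in het neurites and 1330 CPM in WT neurites (log2 fold change -1.31, adjusted p = 0.191). Pdgfra averaged 0.551 CPM in het neurites and 0.32 CPM in WT neurites, and Dpt 0.75 CPM in het neurites and 0.477 CPM in WT neurites, so these 2, which were near the detection limit, had the opposite sign. Of 12 satellite glia markers 5 were lower in het than WT neurites and none higher (median -0.69), among them Fabp7 (-0.92, adjusted p = 0.0124), Sox10 (-0.64, adjusted p = 0.0159) and Sox2 (-0.59, adjusted p = 0.0215). Their sums were 1132 to 1451 CPM in het neurites, 1673 to 1775 in WT neurites, 1032 to 1122 in het soma and 1105 to 1471 in WT soma. Over both genotypes 5 of these 12 were higher in neurites than in soma and none lower (median 0.45), against 1172 higher and 778 lower of all 15990 genes. Of 12 Schwann cell markers 2 were lower, Egr2 (-0.94, adjusted p = 0.0203) and Prx (-1.09, adjusted p = 0.025), with sums of 1532 to 1954 CPM in het neurites, 1899 to 1933 in WT neurites, 1979 to 2152 in het soma and 1976 to 2202 in WT soma. Over both genotypes 3 of them were higher in neurites than in soma and 1 lower. Within WT neurites, libraries 1, 2 and 3, the satellite glia sums were 1673, 1752 and 1775 CPM and the Schwann cell sums 1931, 1933 and 1899 CPM. The most abundant genes weigh most in such sums, so a sum need not follow the other markers of its list. Glul, of the satellite glia list, averaged 523 CPM in het neurites and 482 CPM in WT neurites, opposite in sign to the median of that list.

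Of 18 sensory neuron markers 1 was higher in het than WT neurites, Uchl1, a neuronal ubiquitin hydrolase (0.46, adjusted p = 0.0403), and the list's median was 0.28 with 17 of 18 above 0. Between compartments 10 of the 18 were lower in neurites over both genotypes, among them Rbfox3, the neuronal splicing factor NeuN (-0.46, adjusted p = 0.00422), and Calca, which encodes a neuropeptide of sensory neurons (-0.48, adjusted p = 0.00542). Of all 15990 genes 79 were called higher in het than WT neurites, and 778 lower in neurites over both genotypes. The neuron markers summed to 15154 to 19475 CPM in het neurites, 12886 to 16576 in WT neurites, 19149 to 22601 in het soma and 17102 to 19779 in WT soma. The macrophage sum was lowest in WT neurites library 1 (87.3 CPM) and reached 293 CPM in het neurites library 3, opposite to Calr, Canx, Hsp90b1, Pdia3, Pdia4 and Pdia6 in these 2 libraries. No macrophage marker (6 tested) and no marker of endothelium and pericytes (7 tested) was called between genotypes. The part of any of these cell types in the chaperone levels was not tested.

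At the level of single transcripts, 31 of the members' transcripts were tested among 29102. In het against WT neurites 1 of the 31 passed, against 1.38% of all transcripts called lower and 1.6% called in either direction. It was Calr-202, annotated as a retained-intron transcript near the 5′ end of the gene on the minus strand (chr8:84845750-84846826, GRCm38). It measured 27.4, 24.6 and 20.3 CPM in het neurites and 38.6, 33.9 and 32.5 CPM in WT neurites, with no overlap (log2 fold change -0.54, SE 0.14, adjusted p = 0.0471). The same transcript was the 1 of 31 that was higher in neurites than in soma over both genotypes (0.32, SE 0.10, adjusted p = 0.0489, against 4.65% called higher and 7.14% in either direction), with 22.5, 19.7 and 22.8 CPM in het soma and 27.6, 22.7 and 25.0 CPM in WT soma. Both calls sit just under the threshold and were lost under several other settings, among them RLE size factors and no filter on low counts. In WT neurites against WT soma the value of this transcript was 0.48 (SE 0.14, adjusted p = 0.0782), and 0 of 31 passed there (against 1.58%), in het neurites against het soma (against 0.512%), in het soma against WT soma (against 0.0653%) and in the interaction (against 0.0%). With replicate number as a block, 2 of 31 passed in WT neurites against WT soma, against 4.91% of all transcripts.

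The mRNA made up most of the Calr counts: Calr-201, the only annotated coding transcript, took 88.4% to 91.0% of the gene's counts in each library and Calr-202 took 6.7% to 8.3% in neurites and 5.7% to 6.93% in soma. No member transcript had a share of its gene's counts that separated neurites from soma without overlap, in either direction (0 of 29, against 0.494% higher and 0.52% lower over all transcripts of genes with more than 1). These transcripts overlap each other, and how reads were divided among them is not given in the sources used here.

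In the authors' deposited table of het over WT in neurites, 5 of the members' 31 transcripts had a false discovery rate under 0.05, all lower in het, against 2.64% of its transcripts. In the authors' deposited table these were Pdia6-202 (log2 fold change -0.74, false discovery rate 0.00709), Calr-202 (-0.54, 0.0199), Calr-201 (-0.52, 0.0382), Pdia4-201 (-0.56, 0.0388) and Hsp90b1-201 (-0.51, 0.049). Calr-201, Pdia4-201 and Hsp90b1-201 are annotated as protein-coding, and Pdia6-202 as a retained-intron transcript. In the authors' deposited table for soma, 1 of 33, Pdia4-201 (-0.35, false discovery rate 0.024), passed, against 3.45% lower in het. In the edgeR fit to all 12 libraries, 4 of these 5 neurite transcripts did not pass: Pdia6-202 (-0.75, adjusted p = 0.0576), Calr-201 (-0.52, adjusted p = 0.0794), Hsp90b1-201 (-0.52, adjusted p = 0.188) and Pdia4-201 (-0.58, adjusted p = 0.198).

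Other genes of the ER were described from 7 lists. Over all genes tested, 2.78% were called lower in het than WT neurites. In either direction 3.1% were called in WT neurites against WT soma and 12.2% over both genotypes. Calls of single genes in a list are to be read against these shares. Of 24 further luminal chaperones and folding enzymes 1 was lower in het than WT neurites and none higher, with a median log2 fold change of -0.36 and 21 of 24 below 0. It was Calu, which encodes calumenin, a calcium-binding protein of the secretory pathway, with 170 ± 40.1 CPM in het neurites and 317 ± 38.8 CPM in WT neurites (-0.90, SE 0.16, adjusted p = 0.0174). Calu also rose in WT neurites against WT soma (0.73, adjusted p = 0.0248), where it was the only one of the 24 called. Over both genotypes it rose as well (0.57, adjusted p = 0.00572) and 2 of the 24 were lower in neurites, Sdf4 (-0.30, adjusted p = 0.0124) and Tmx1 (-0.31, adjusted p = 0.0212), a calcium-binding protein and a membrane-bound thioredoxin.

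Of 21 genes of ER-associated degradation, which returns misfolded proteins to the cytosol, 1 fell in het against WT neurites, Edem1, which takes mannose-trimmed glycoproteins to degradation (120 ± 16.2 CPM in het neurites and 164 ± 14.7 CPM in WT neurites, log2 fold change -0.45, adjusted p = 0.0385). The list's median was -0.15, and 2.78% of all genes were called lower in this comparison. None of 23 genes of the translocon, signal peptidase and oligosaccharyltransferase passed in any comparison, and in het over WT neurites their median was -0.24 with 20 of 23 below 0; the smallest p was that of Ddost (215 ± 32.4 CPM in het neurites and 297 ± 66.3 CPM in WT neurites, adjusted p = 0.0862). Of 13 genes of ER shape and calcium 1 fell in het neurites, Itpr3, a calcium release channel (266 ± 81.2 CPM in het neurites and 465 ± 90.6 CPM in WT neurites, -0.81, adjusted p = 0.0443). In WT neurites against WT soma Atl1 (-0.42, adjusted p = 0.0269) and Reep1 (-0.50, adjusted p = 0.0498), which shape ER tubules, were lower. Between compartments 5 of these 13 were lower in neurites over both genotypes and 1 higher, with Reep1 (-0.47, adjusted p = 0.00518) and Atl1 (-0.33, adjusted p = 0.00549) and Reep2 (-0.48, adjusted p = 0.00752) leading. Of all 15990 genes 778 were lower there and 1172 higher.

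None of 5 sensor genes and none of 12 genes of the Atf4 and Chop branch, the arm downstream of Perk, passed in any comparison. In the sensor list the smallest p in het over WT neurites was that of Mbtps1 (-1.04, adjusted p = 0.241), then that of Atf6 (-0.15, adjusted p = 0.541). Mbtps1 is not a sensor itself but the protease that first cuts Atf6. It was near the detection limit, with 0.29 ± 0.195 CPM in het neurites and 0.618 ± 0.0566 CPM in WT neurites. In het over WT neurites the Atf4 and Chop branch had a median of 0.33 with 9 of 12 above 0, the opposite sign to the chaperones; Atf4 itself averaged 862 ± 106 CPM in het neurites and 689 ± 33.7 CPM in WT neurites (0.32, adjusted p = 0.0971). In soma its median was 0.17. The chaperones of the cytosol and mitochondria, 18 genes, had a median of -0.02 in het over WT neurites with none called. In this list Hspd1, the mitochondrial Hsp60, rose in WT neurites against WT soma (378 ± 56.7 CPM in neurites and 260 ± 17.6 CPM in soma, 0.54, adjusted p = 0.0157), and over both genotypes it rose (0.48, adjusted p = 0.00131) together with its partner Hspe1 (0.30, adjusted p = 0.0404). No gene of the 7 lists was called in het soma against WT soma or in the interaction, and none in het neurites against het soma. With only the compared groups in the fit, the calls of Calu, Edem1 and Itpr3 in neurites between genotypes and those of Calu (adjusted p = 0.0511), Hspd1, Atl1 and Reep1 in WT cultures were lost. The calls in het against WT neurites rest on few libraries: leaving out het neurites library 2, het neurites library 3 or WT neurites library 3 left 0 genes of the whole table called, and leaving out WT neurites library 2 gave 1767 in place of 523.

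**Figure D5:**
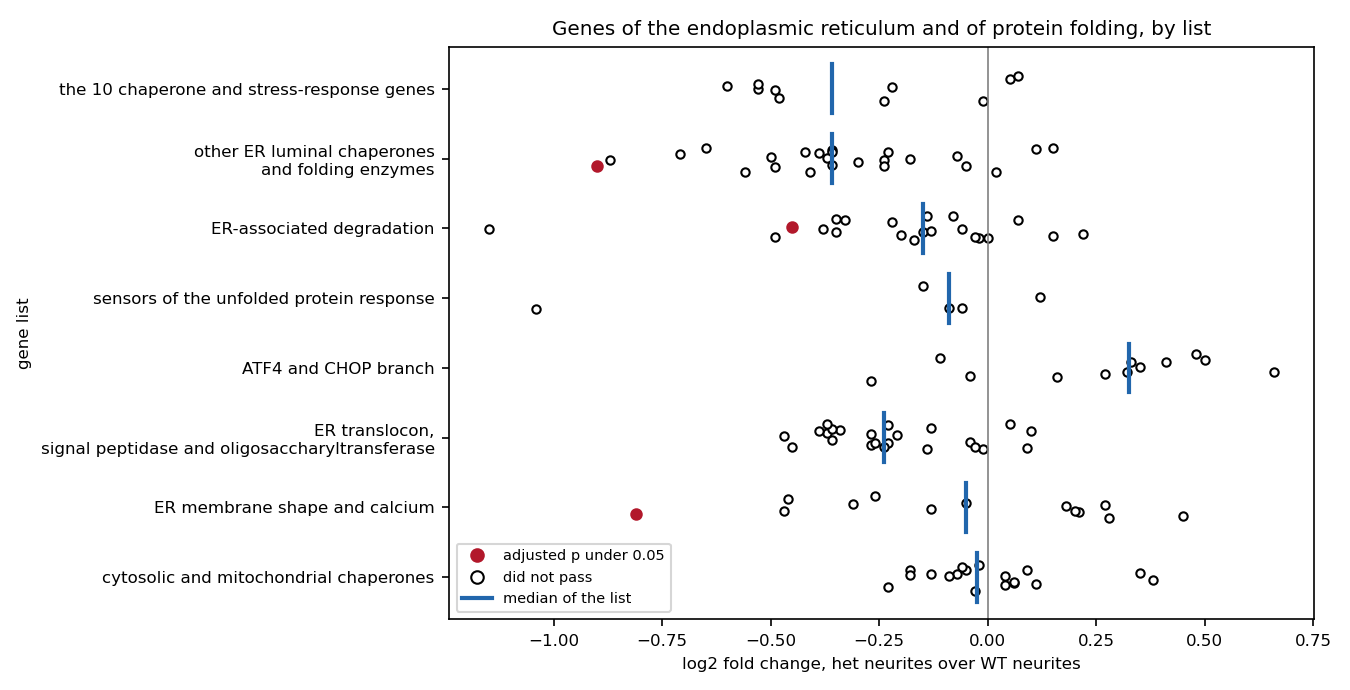
Log2 fold changes of het neurites over WT neurites (horizontal axis) for the 10 chaperone and stress-response genes and for 7 lists of genes of the endoplasmic reticulum and of protein folding (rows). Each point is a gene, red where its adjusted p was under 0.05, and the blue line is the median of the list, -0.36 for the 10 genes and 0.33 for the Atf4 and Chop branch.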

How the data were processed

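Dorsal root ganglion cultures gave 12 stranded, ribosome-depleted total RNA libraries, 3 for each combination of genotype and compartment. CASAVA 1.8.2, edgeR and the mm10 (GRCm38) build are named in the submitters' processing notes; which program aligned and which counted the reads is not given in the sources used here. For each compartment there is a deposited table of raw counts per Ensembl transcript (soma 35313 transcripts, neurites 32838), already without transcripts of low counts. These tables also hold, per the file headers, the authors' log2 fold change of het over WT with its p-value and adjusted value, from a test that is not stated. The remaining 24 per-sample columns were not used, and transcripts with no gene name (0.574% to 0.694% of counts) were left out.

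Counts of the 31420 transcripts in both tables were summed per gene name, giving 16617 genes. After filterByExpr and TMM scaling they entered an edgeR 4.0.16 fit (robust quasi-likelihood, R 4.3.3) with 1 mean per group and 1 spread for 12 libraries; transcripts (29102) were fitted alike. Benjamini-Hochberg adjustment ran over all genes or transcripts of each of 6 comparisons, with a threshold of 0.05. On simulated counts for WT neurites against WT soma, 200 genes were changed and 15796 tested. Of the changes, 83% of the 2-fold and 27% of the 1.5-fold ones were recovered. Neither the other comparisons nor libraries that stand apart were simulated. The 10 genes, the 7 lists and the 6 marker lists were chosen with earlier results of these data known. Of each list, up to 3 called genes with the smallest p are named, or, where none was called, at most 2 by value. Tubb3, Pdgfra, Dpt and Glul were named as markers after their values were seen. A marker that this rule also names is not reported here. For Calr and Hspa5 the 5 genes with the highest Pearson correlation of log2 CPM are named. Transcript positions and types come from GENCODE M21, in which 97.61% of the transcripts were found, and promoter windows from RefSeq (GRCm38.p6).

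The labels number the libraries 1 to 3 in each group. Deviations from the group mean correlated between same-numbered WT neurite and WT soma libraries (0.23 to 0.341) and between het and WT soma libraries (0.159 to 0.273), every pair above 0.1, so a fit with the replicate number as a block is given beside those comparisons. Het neurites with WT soma (0.147 to 0.256) and het soma with WT neurites (0.131 to 0.238) also lay above 0.1. Het with WT neurites (-0.037 to 0.224) and het neurites with het soma (0.05 to 0.256) did so only in part. Het neurite and het soma libraries of different number correlated at -0.207 to 0.008, below every same-numbered pair, so the block fit is given there too. Alternatives were RLE size factors, DESeq2 1.42.0, limma voom 3.58.1, no filter, fits to the compared groups only, replicate blocks, each library left out in turn, all transcripts of a table and, added after seeing the data, protein-coding transcripts only.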

Additional observations from a re-analysis of the deposited data

How the results depend on the processing

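Of 1180 recomputed log2 fold changes of the 10 genes, 1108 kept their direction and side of the threshold, 64 changed sign (56 of them on leaving out 1 library) and 8 newly passed; where a value changed, the cause was not tested. Members called in het against WT neurites, 0 as reported, were 1 by DESeq2, 1 with the replicate block and 0 to 5 on leaving out 1 library. The call with the block was Calr (-0.53, adjusted p = 0.0198, against 7.75% of genes called lower). Deviations of same-numbered het and WT neurite libraries correlated at 0.142, 0.224 and -0.037 for numbers 1, 2 and 3. Whether the number pairs them is not settled. The block changed no other gene-level call on a member.

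Without the filter, with RLE size factors or with voom the member transcripts called over both genotypes were 0, 0 and 0, and in het against WT neurites 0 (no filter), 0 (RLE) and 0 (only the groups compared). DESeq2 gave 3 in WT neurites against WT soma (6.99% of all transcripts with an adjusted p), 3 over both genotypes (14.3%) and 3 in het against WT neurites (6.69%). The replicate block gave 2 (4.91%), 3 (11.4%) and 5 (5.39%) there, and a culture block 2 (4.94%) and 3 (11.6%) for the compartments. Leaving out 1 library gave 0 to 2, 0 to 3 and 0 to 10, and the highest were without WT neurites library 2 (3.23%, 9.27% and 5.61% of all transcripts), with 3 over both genotypes also without het neurites library 3 (5.42%).

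Genes called in all were 495 in WT neurites against WT soma (93 to 1081 on leaving out 1 library, 40 to 1510 otherwise), 102 in het cultures (0 to 191, 77 to 671), 1950 over both genotypes (1093 to 2746, 1733 to 3183), 0 in soma between genotypes (0 to 64, 0 to 520) and 523 in neurites (0 to 1767, 0 to 1696).

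Signs that turned belonged to log2 fold changes of at most 0.27 in size. With protein-coding transcripts only, chosen after seeing the data, Hspa5 in het over WT soma was 0.12, Dnajb9 there -0.0 and the Herpud1 interaction -0.01. With only the groups compared Xbp1 in WT neurites over soma was -0.01, and Herpud1 in het over WT neurites was 0.02, against 0.01 with RLE, 0.0 with DESeq2 and 0.02 with all transcripts of the table. Leaving out 1 library in turn turned these further signs. In WT neurites over soma the values ran from -0.2 to 0.06 (Hspa5), -0.01 to 0.41 (Pdia3), -0.19 to 0.36 (Pdia6), -0.05 to 0.05 (Xbp1) and -0.23 to 0.01 (Dnajb9). In het neurites over soma they ran from -0.2 to 0.06 (Calr), -0.15 to 0.04 (Canx), -0.03 to 0.34 (Hsp90b1), -0.22 to 0.17 (Pdia3), -0.15 to 0.19 (Pdia4) and -0.14 to 0.09 (Dnajb9). Over both genotypes they ran from -0.03 to 0.14 (Calr), -0.02 to 0.2 (Pdia3), -0.17 to 0.1 (Pdia6) and -0.01 to 0.04 (Xbp1). In het over WT soma they ran from -0.21 to 0.04 (Hspa5), -0.02 to 0.08 (Canx), -0.0 to 0.09 (Xbp1), -0.02 to 0.05 (Dnajb9) and -0.12 to 0.06 (Herpud1), and in het over WT neurites from -0.05 to 0.19 (Dnajb9) and -0.13 to 0.07 (Herpud1). In the interaction they ran from -0.27 to 0.04 (Hspa5), -0.45 to 0.0 (Pdia4), -0.51 to 0.04 (Pdia6), -0.03 to 0.07 (Xbp1), -0.06 to 0.19 (Dnajb9) and -0.12 to 0.14 (Herpud1).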
